A study of Mus musculus with 32 samples.

Results

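CD11b-enriched cells, 5 arrays per group, were compared between EG7 tumours grown in Myd88-/- hosts and EG7 tumours grown in WT hosts. These 10 arrays, 5 per host genotype, were chosen by their labels from the 32 arrays of the series. EG7 is a transplantable mouse lymphoma line of T lymphocyte origin that grows as a thymoma, so the tumour cells come from the line and only the host cells carry the host genotype. The Myd88-/- hosts lack the adaptor in every host cell from the germline on, and no other allele, Cre or treatment is named for either group. The labels state neither strain nor age, nor which part of Myd88 was deleted. Cells were enriched from digested tumours with magnetic beads against CD11b, an integrin chain found on macrophages, monocytes, neutrophils and some dendritic cells, so each array reads a mixture. The study asked with these tumours which programmes of tumour macrophages depend on signalling through Toll-like and interleukin-1 receptors.

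MYD88 is an adaptor protein that links IRAK kinases and TRAF6 to nearly all Toll-like receptors, and also to receptors for interleukin-1, interleukin-18 and interleukin-33. The complex that forms activates the IKK kinases, which release NF-kB from its IkB inhibitors, and the MAP kinases. In macrophages this route is known for switching on inflammatory cytokines together with the inhibitors that shut it down again. TLR3, and in part TLR4, use the adaptor TRIF instead, and TNF receptors reach NF-kB without MYD88.

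Myd88 itself, on chromosome 9, had a log2 signal of 7.6, 7.69, 7.53, 7.83 and 7.47 in Myd88-/- hosts, against 8.57, 8.37, 8.44, 8.37 and 8.11 in WT hosts. The groups did not overlap, and the difference, Myd88-/- minus WT, was -0.75 ± 0.10 (standard error, as after each ± below; n = 5 each, limma adjusted p = 0.00172). Its only named probe set stayed at the 89.4th percentile of all probe sets in Myd88-/- hosts, against the 93.0th in WT hosts. The sources do not place this probe set relative to the deletion, which makes its level a limited check of the labels. The design text gives 5 tumours per genotype, but no label ties an array to an animal, so the p-values reflect array-to-array spread, part of which may be technical.

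Array medians of the log2 signal were 2.98 to 3.03 in Myd88-/- hosts and 2.95 to 3.01 in WT hosts. The log2 signal is the authors' RMA value per probe set, and 1 probe set stands for each gene. The control probe sets of actin, whose excess of 3' over 5' signal rises as RNA degrades, read 0.69 ± 0.06 log2 units in Myd88-/- hosts and 0.60 ± 0.05 in WT hosts (SD, n = 5 each; exact two-sided permutation p = 0.0397, where the smallest possible is 0.00794). For Gapdh the same excess was 0.37 ± 0.07 in Myd88-/- hosts and 0.32 ± 0.09 in WT hosts (SD, n = 5 each; exact permutation p = 0.413). On the first principal component, which held 27.8% of the variance, WT arrays 4 and 5 lay at 3.54 and -1.30, within the Myd88-/- range of -0.26 to 21.01 or close to it, while WT arrays 1, 2 and 3 lay between -18.77 and -13.77. WT array 4 also had the lowest mean of its group over the NF-kB proteins, at 8.997 against 9.16 to 9.47 in the other WT arrays and 8.54 to 8.76 in Myd88-/- hosts.

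Of 11955 genes tested, 179 (1.5%) passed the test at an adjusted p under 0.05, of which 146 (1.22%) fell and 33 (0.276%) rose in Myd88-/- hosts. The 5 Myd88-/- arrays lay entirely below the 5 WT arrays for 203 genes (1.7%) and entirely above them for 161 (1.35%), together 3.04% of genes. Falls were also the larger changes, with 37 genes lower by more than 1 log2 unit against 2 genes higher by more than 1. Fallen genes had a median difference of -0.72 and risen genes of 0.54, while the median of all genes tested was 0.01. Leaving out WT array 4 gave 279 called genes, and leaving out WT array 2, WT array 3, Myd88-/- array 3 or Myd88-/- array 5 gave 86, 88, 110 and 97. With the actin 3' excess as a covariate 20 genes fell and 0 rose, and all 179 genes kept their sign. The median difference was then -0.67 for the fallen genes, against -0.72 without the covariate, and 0.537 for the risen genes, against 0.544, while the median standard error of these genes was 0.157 against 0.116; the part of RNA quality in the result was not tested further. Of 96 named genes called other than Myd88, 18 were called under every other setting run for them (21, or 20 for Lars2, which the setting without neighbours of Myd88 leaves out) and 29 lost the call only with this covariate.

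**Figure D1:**
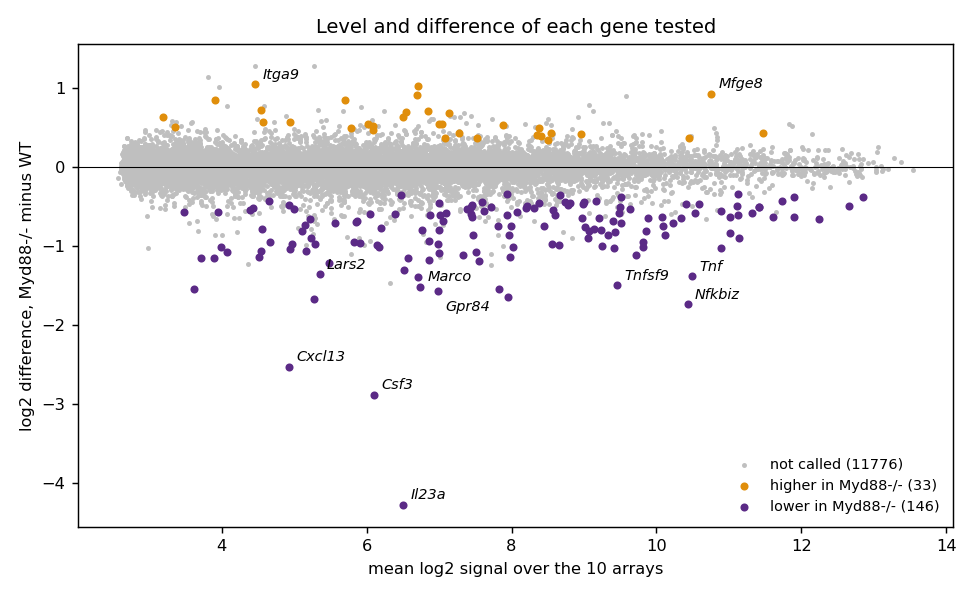
Mean log2 signal over the 10 arrays (horizontal axis) against the log2 difference, Myd88-/- minus WT (vertical axis), with 1 point per gene tested. The 33 genes that rose are orange, the 146 that fell are purple and 11776 others are grey; Il23a, Csf3 and Cxcl13 stand lowest, at -4.27, -2.88 and -2.53.

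The largest fall was in Il23a, which encodes p19, the subunit that is particular to interleukin-23 and pairs with p40 to sustain Th17 cells. Its log2 signal was 4.43, 4.41, 4.78, 3.95 and 4.27 in Myd88-/- hosts, against 8.85, 8.6, 8.87, 8.53 and 8.35 in WT hosts. All Myd88-/- arrays thus lay more than 3 log2 units below every WT array, and the difference was -4.27 ± 0.15 (n = 5 each, adjusted p = 4.89e-09), or 19.3-fold lower. Il12a, which encodes the p35 subunit of interleukin-12, read 3.56, 3.74, 3.69, 3.28 and 3.38 in Myd88-/- hosts, against 4.87, 4.81, 4.66, 4.4 and 4.3 in WT hosts. The groups were again separate, at a low signal in both (-1.08 ± 0.13, adjusted p = 9.13e-04). Ebi3, the subunit shared by interleukin-27 and interleukin-35, fell by 0.49 ± 0.10 (adjusted p = 0.0259). Of the 7 family members tested 3 fell, 0 rose and all 7 were lower, with a median of -0.49. The gene lists here and below were chosen with earlier results of these data known, so their counts and medians are descriptions and not tests. Il12b, the p40 subunit common to interleukin-12 and interleukin-23, was chosen for mention with its values known. It averaged 5.23 ± 0.39 in Myd88-/- hosts and 6.33 ± 0.66 in WT hosts (SD, n = 5 each), a difference of -1.10 ± 0.28 that did not pass the test (adjusted p = 0.0860), and WT array 4, at 5.17, lay among the Myd88-/- arrays.

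**Figure D2:**
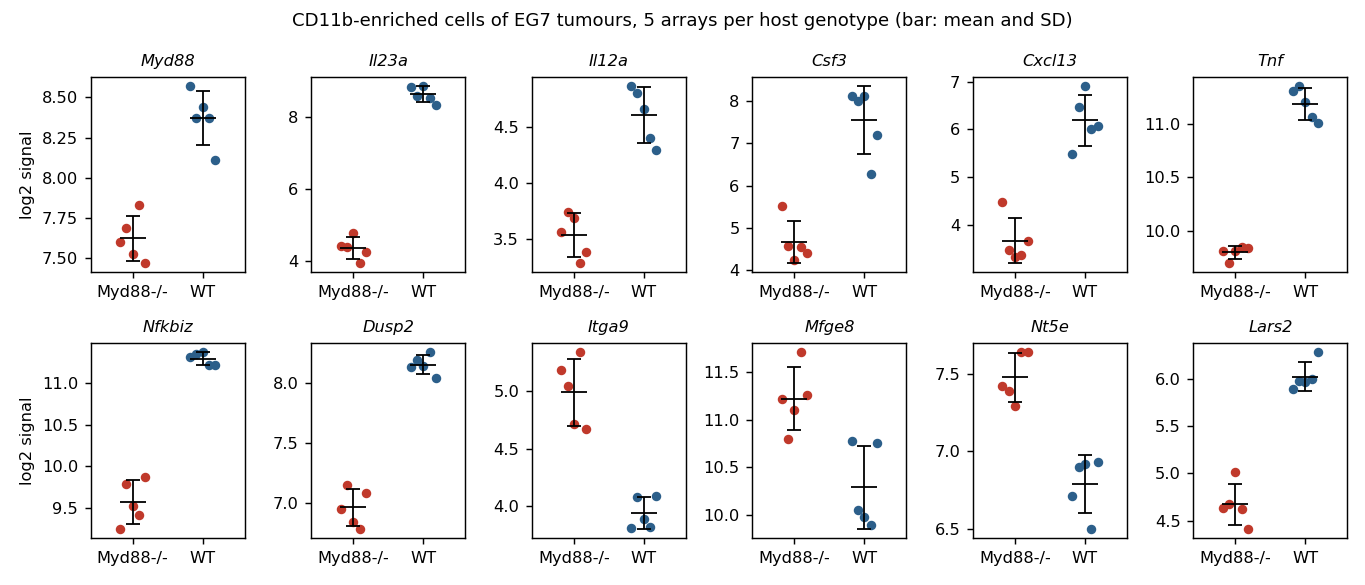
Log2 signal (vertical axes, each with its own range) of 12 genes on each array, with Myd88-/- hosts in red on the left and WT hosts in blue on the right of each panel; horizontal bars are the mean and SD of 5 arrays. The 2 colours do not overlap in any panel, with the widest gap for Il23a (means of 4.37 in Myd88-/- hosts and 8.64 in WT hosts).

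Among the other cytokines and colony-stimulating factors 6 of 22 tested fell and 0 rose, and the list median of -0.03 lay close to that of all genes. Csf3, which encodes the neutrophil growth factor G-CSF, read 5.52, 4.58, 4.25, 4.55 and 4.41 in Myd88-/- hosts, against 8.12, 8.0, 8.12, 6.27 and 7.2 in WT hosts. The groups were apart although WT array 4 was the lowest of its group, and the difference was -2.88 ± 0.34 (adjusted p = 8.71e-04). Tnf, the founding cytokine of its family, read 9.81, 9.7, 9.81, 9.85 and 9.84 in Myd88-/- hosts, against 11.3, 11.35, 11.2, 11.06 and 11.01 in WT hosts. This is a fall of a highly expressed gene by 1.38 on the log2 scale (SE 0.08, adjusted p = 3.38e-06), or 2.61-fold. Il6, a pleiotropic inflammatory cytokine, averaged 9.34 in Myd88-/- hosts and 10.28 in WT hosts (-0.94 ± 0.16, adjusted p = 0.00935). Csf2, which encodes GM-CSF, fell by 0.94 ± 0.20 (adjusted p = 0.0350), Lif, a relative of Il6, fell by 0.97 ± 0.13, and Ereg, a ligand of the EGF receptor, differed by -1.17 ± 0.18 (adjusted p = 0.00420). The call of Csf2 was lost under 9 of 21 other settings. Il10, the main anti-inflammatory cytokine of macrophages, was also chosen with its values known, with means of 7.10 in Myd88-/- hosts and 8.34 in WT hosts (-1.24 ± 0.29, adjusted p = 0.0551). Its WT array 4, at 7.0, lay within the Myd88-/- range and the other WT arrays did not.

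Genes outside the lists also stood among the 15 largest falls, which were taken only from called genes with separate groups. Slc13a3, a dicarboxylate transporter, fell by 1.55, Schip1 by 1.66, Itpkc, an inositol phosphate kinase, by 1.38 and the calcium channel gene Orai2 by 1.22, while the protein kinase D gene Prkd3 differed by -1.298. Their separate groups are a condition of that choice and not a result. The same holds for Il23a, Csf3, Cxcl13, Nfkbiz, Mrgpra2b, Gpr84, Il1f9, Tnfsf9, Tnf and Lars2, which also stand among these 15. It holds as well for the 15 largest rises, which were chosen in the same way.

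Interleukin-1 family ligands and their processing enzymes fell for 5 of 11 tested, with 0 rises and a median of -0.36. Il1f9, which encodes interleukin-36 gamma, averaged 7.06 in Myd88-/- hosts and 8.602 in WT hosts (-1.55 ± 0.17, adjusted p = 5.21e-04). Il1b, among the most strongly hybridised genes here, read 12.26, 12.5, 12.41, 12.49 and 12.41 in Myd88-/- hosts, against 13.03, 13.06, 12.95, 12.76 and 12.74 in WT hosts. The fall was small next to that of Il23a but the groups did not overlap (-0.49 ± 0.09, adjusted p = 0.0141). Il1a fell by 0.64 ± 0.14 (adjusted p = 0.0469), Il18 by 0.34 ± 0.08 (adjusted p = 0.0467) and Casp4, an inflammatory caspase, by 0.48 ± 0.09. The calls of Il1a and Il18 were lost under 11 and 14 of the 21 other settings tried.

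Receptors stand upstream of these outputs. Of 22 Toll-like and interleukin-1 receptor family genes tested, 0 fell and 1 rose, and the median was -0.002. The riser was Tlr4, the lipopolysaccharide receptor, at 7.18, 7.26, 7.4, 7.31 and 7.16 in Myd88-/- hosts and 7.04, 6.87, 6.94, 6.92 and 6.72 in WT hosts. Its difference of 0.36 ± 0.08 was near the limit (adjusted p = 0.0498), and the call was lost under 16 of 21 other settings. Adaptors and kinases gave 4 falls among 27 tested, Myd88 included, and 0 rises, with a median of -0.08. Irak3, a kinase-like inhibitor of this receptor complex, averaged 5.35 in Myd88-/- hosts and 6.30 in WT hosts (-0.95 ± 0.15, adjusted p = 0.00808). Map3k8, a MAP kinase activator also called TPL2, fell by 0.59 ± 0.12 and Ikbke, an IKK-related kinase, by 0.46 ± 0.10. Their calls were lost under 8 and 11 of 21 other settings.

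NF-kB subunits and IkB proteins fell for 5 of 10 tested, and all 10 were lower in Myd88-/- hosts, with a median of -0.53. Nfkbiz, an atypical nuclear IkB protein known as a co-activator of Il6 and Il12b, read 9.24, 9.79, 9.52, 9.41 and 9.87 in Myd88-/- hosts, against 11.32, 11.35, 11.38, 11.22 and 11.22 in WT hosts. No array of either group came within 1 log2 unit of the other group (-1.73 ± 0.12, adjusted p = 6.42e-06). The other Nfkbiz probe sets gave -2.27 and -0.74, and both passed the test. Nfkbid, another nuclear IkB protein, averaged 8.90 in Myd88-/- hosts and 9.76 in WT hosts (-0.86 ± 0.10, adjusted p = 9.47e-04). Bcl3, the third nuclear member that fell, did so by 0.68 ± 0.14, the precursor subunit gene Nfkb2 by 0.44 ± 0.10, and Nfkbia, the classical inhibitor IkB-alpha, by 0.38 ± 0.07 (adjusted p = 0.0210). The calls of Bcl3, Nfkb2 and Nfkbia were lost under 10, 11 and 6 of 21 other settings.

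The list of feedback inhibitors of NF-kB and the MAP kinases gave 9 falls and 0 rises among 20 tested, with a median of -0.42. It also holds Nlrp3 and the stress genes Gadd45a and Gadd45b, so the count is not of inhibitors alone. Dusp2, a phosphatase of MAP kinases, read 6.95, 7.15, 6.84, 6.78 and 7.08 in Myd88-/- hosts, against 8.13, 8.19, 8.14, 8.26 and 8.04 in WT hosts. Its spread was small in both groups (-1.19 ± 0.09, adjusted p = 1.81e-05). Zc3h12a, an RNase that degrades cytokine transcripts, fell by 1.09 ± 0.15 (adjusted p = 0.00177), Socs3, an inhibitor of STAT3 signalling, by 0.75 ± 0.12, and the stress genes Gadd45a and Gadd45b by 0.65 ± 0.11 and 0.50 ± 0.08. Nlrp3, the inflammasome sensor held in the same list, averaged 8.90 in Myd88-/- hosts and 9.93 in WT hosts (-1.02 ± 0.13, adjusted p = 0.00145).

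**Figure D3:**
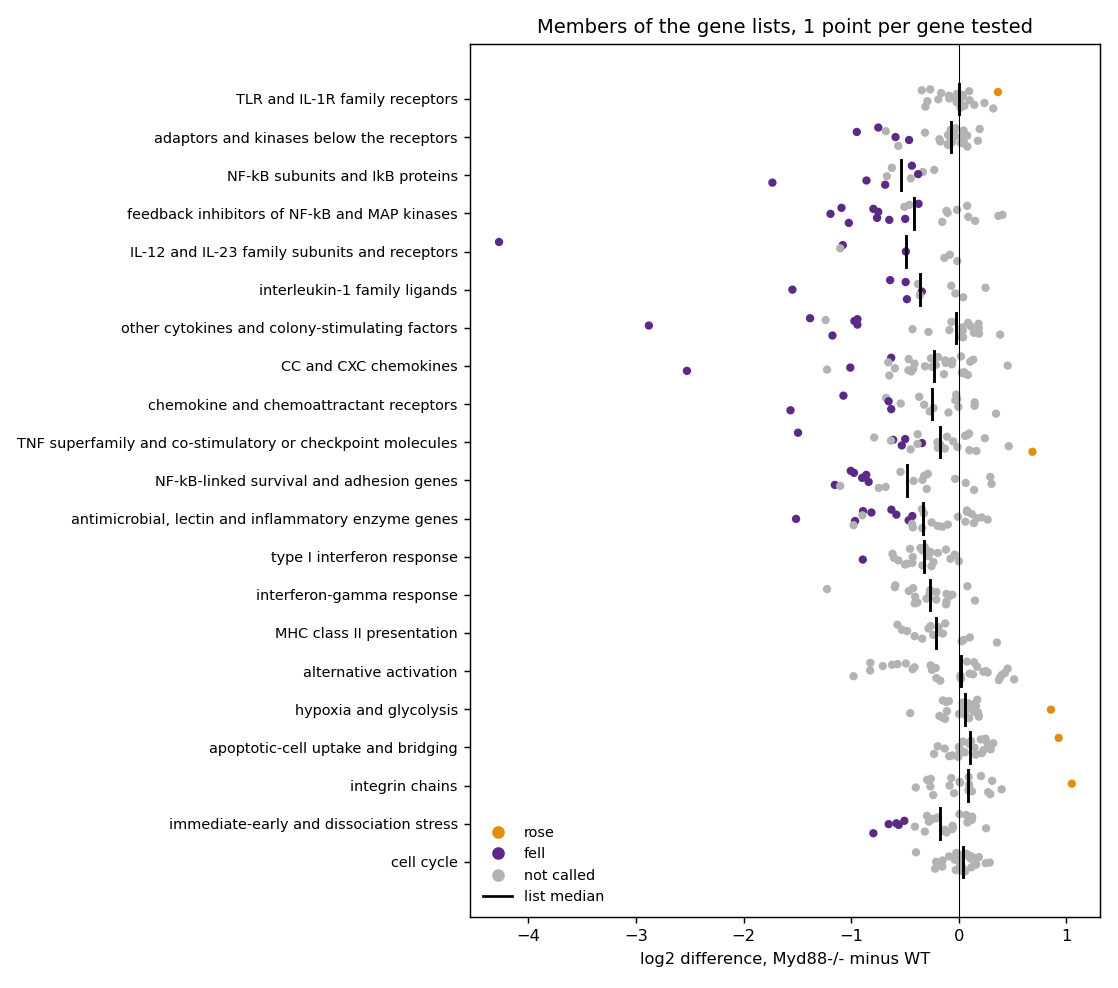
Log2 difference, Myd88-/- minus WT (horizontal axis), of every tested member of 21 gene lists (rows), with 1 point per gene; orange rose, purple fell, grey did not pass the test, and the black bar is the list median. Lists of NF-kB proteins, feedback inhibitors, survival genes and IL-12 family subunits have medians of -0.53, -0.42, -0.48 and -0.49, whereas receptors, cell cycle and alternative activation lie at -0.002, 0.04 and 0.02. The lists were chosen with earlier results of these data known, so contrasts between them are descriptions.

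The stretches upstream of 4 fallen genes are shown because each holds a match to the kappaB consensus, the site that NF-kB dimers bind. They were taken from RefSeq gene starts on GRCm38.p6 and picked after the matches were seen, as 2 IkB genes (Nfkbid, Nfkbia) and 2 cytokine genes (Il6, Ebi3). Each is 250 bases long, runs 5' to 3' on the gene's strand and ends at the base before the start, with matches in capitals. The Nfkbid stretch, chr7:30422156-30422405 on the plus strand, belongs to 1 of several starts and holds 2 matches; those of Il6 (chr5:30012864-30013113, plus), Nfkbia (chr12:55492648-55492897, minus) and Ebi3 (chr17:55952373-55952622, plus) hold 1 each.
Nfkbid: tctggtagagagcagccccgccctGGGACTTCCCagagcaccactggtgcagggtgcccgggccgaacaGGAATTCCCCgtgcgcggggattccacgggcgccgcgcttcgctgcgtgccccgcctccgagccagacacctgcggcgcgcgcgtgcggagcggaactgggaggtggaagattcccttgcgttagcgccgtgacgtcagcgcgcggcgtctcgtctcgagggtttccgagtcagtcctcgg
Il6: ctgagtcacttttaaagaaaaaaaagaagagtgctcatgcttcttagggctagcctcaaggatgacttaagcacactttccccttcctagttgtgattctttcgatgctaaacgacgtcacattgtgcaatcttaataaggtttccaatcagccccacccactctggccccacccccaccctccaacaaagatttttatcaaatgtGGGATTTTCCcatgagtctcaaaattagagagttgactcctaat
Nfkbia: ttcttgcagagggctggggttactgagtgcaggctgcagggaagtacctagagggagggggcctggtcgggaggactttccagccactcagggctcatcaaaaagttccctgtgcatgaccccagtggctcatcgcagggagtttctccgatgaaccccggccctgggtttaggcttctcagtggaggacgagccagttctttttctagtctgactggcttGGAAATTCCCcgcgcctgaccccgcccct
Ebi3: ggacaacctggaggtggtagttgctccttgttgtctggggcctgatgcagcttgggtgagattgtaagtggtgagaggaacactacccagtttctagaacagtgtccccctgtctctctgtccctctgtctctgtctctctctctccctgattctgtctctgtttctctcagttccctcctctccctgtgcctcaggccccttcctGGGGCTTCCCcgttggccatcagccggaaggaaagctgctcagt

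The consensus was searched in both orientations and overlapping matches were counted apart. It was found upstream of 16 of the 123 fallen genes with a promoter in the table (13%), against 0 of 26 risen genes (0%) and 535 of 9631 genes tested (5.55%). A gene counted when any of its starts held a match, so genes with more starts had more chances. Counted by single promoter instead, 1281 of all 32851 (3.9%) held a match. Besides the 4 genes shown, the 16 were Nlrp3, Casp4, Ccrl2, Ier3, Maff, Nfkb2, Tnfaip3, Tmem176a, Tmem176b, Sdc4, Zfp131 and 4833438C02Rik. Il23a, Csf3, Tnf and Nfkbiz were not among them, and a gene without a promoter in the table could not be. A match describes the letters of this window and not binding.

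Survival and adhesion genes linked to NF-kB fell for 6 of 20 tested, with 0 rises and a median of -0.48. Icam1, the adhesion ligand of CD11b and CD11a integrins, read 9.14, 9.25, 9.23, 9.64 and 9.32 in Myd88-/- hosts, against 10.42, 10.4, 10.41, 10.14 and 10.23 in WT hosts (-1.004 ± 0.10, adjusted p = 2.76e-04). Its groups were separate, as were those of Birc3, an inhibitor of apoptosis (-0.86 ± 0.09), Traf1, a TNF receptor adaptor (-0.97 ± 0.11), and the early response gene Ier3 (-0.84 ± 0.09). Cflar, an inhibitor of caspase-8, fell by 0.90 ± 0.15 and F3, tissue factor, which starts coagulation, by 1.15 ± 0.21. Immediate-early genes, which respond to many stimuli and to tissue digestion, gave 5 falls and 0 rises among 24 tested with a median of -0.17. Those that fell were Nr4a1 (-0.56 ± 0.10), Egr1 (-0.51 ± 0.10), Ier5 (-0.65 ± 0.13), Maff (-0.79 ± 0.17) and Ier2 (-0.58 ± 0.13). In the same order, their calls were lost under 2, 6, 8, 8 and 11 of 21 other settings.

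Antimicrobial, lectin and inflammatory enzyme genes gave 8 falls and 0 rises among 28 tested, with a median of -0.33. Acod1, which makes itaconate, read 10.58, 10.9, 10.47, 10.68 and 10.82 in Myd88-/- hosts, against 11.6, 11.73, 11.7, 11.33 and 11.54 in WT hosts (-0.89 ± 0.10, adjusted p = 8.22e-04). Marco, a scavenger receptor, had a wider spread, with 7.07, 6.19, 5.55, 5.69 and 5.4 in Myd88-/- hosts and 7.35, 8.04, 7.9, 7.15 and 7.02 in WT hosts. Its Myd88-/- array 1 lay above the lowest WT array, and the fall was -1.51 ± 0.30 (adjusted p = 0.0235). Ptgs2, the inducible cyclo-oxygenase, fell by 0.63 ± 0.11, Arg2, the mitochondrial arginase, by 0.81 ± 0.14, the C-type lectin gene Clec4e by 0.43 ± 0.08 and the acute-phase gene Saa3 by 0.58 ± 0.11.

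Chemokines gave 3 falls and 0 rises among 30 tested, with a median of -0.23. Cxcl13, the chemoattractant of B lymphocytes, read 4.47, 3.48, 3.33, 3.37 and 3.67 in Myd88-/- hosts, against 5.49, 6.48, 6.91, 6.0 and 6.07 in WT hosts. The groups were 1 log2 unit apart at their nearest arrays (-2.53 ± 0.26, adjusted p = 2.76e-04), and the other Cxcl13 probe set gave -1.66. Ccl3, an inflammatory chemokine, fell by 0.63 ± 0.08 (adjusted p = 0.00175). Cxcl5, a neutrophil attractant, fell by 1.01 ± 0.23 (adjusted p = 0.0467), a call lost under 12 of 21 other settings.

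Chemoattractant receptors gave 4 falls and 0 rises among 18 tested, with a median of -0.25. Gpr84, a receptor of medium-chain fatty acids, averaged 6.20 in Myd88-/- hosts and 7.76 in WT hosts (-1.56 ± 0.14, adjusted p = 7.63e-05). Hcar2, the niacin and butyrate receptor, fell by 0.63 ± 0.13. Ccr2, the receptor that draws monocytes from the blood, read 6.13, 7.37, 7.21, 7.11 and 7.07 in Myd88-/- hosts, against 8.16, 8.16, 8.04, 7.85 and 8.04 in WT hosts. Array 1 was the lowest of the Myd88-/- group and no array overlapped (-1.07 ± 0.19, adjusted p = 0.0121). All 4 Ccr2 probe sets were lower, by -1.07, -1.18, -0.81 and -1.20.

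Ligands and receptors of the TNF superfamily with co-stimulatory and checkpoint molecules gave 5 falls and 1 rise among 25 tested, with a median of -0.17. The rise was that of Nt5e, described with the other rises. Tnfsf9, the 4-1BB ligand, read 8.76, 8.7, 8.68, 8.63 and 8.76 in Myd88-/- hosts, against 10.43, 10.4, 10.33, 9.73 and 10.11 in WT hosts (-1.49 ± 0.12, adjusted p = 3.89e-05). The death receptor gene Fas fell by 0.61 ± 0.11, Tnfrsf1b, which encodes TNF receptor 2, by 0.50 ± 0.09, Icosl by 0.53 ± 0.12 and Cd83 by 0.34 ± 0.08. Calls of Icosl and Cd83 were lost under 16 and 15 of 21 other settings.

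Within the lists of interferon response genes, 1 gene passed the test. Outside them, genes named for interferon induction also fell, namely Ifi213 (-1.03), Ifitm3 (-0.60) and Ifi209 (-0.52). They are named after their values were seen. Usp18, an inhibitor of interferon receptor signalling, was the only one of 24 type I interferon response genes to fall (-0.89 ± 0.17, adjusted p = 0.0162), 0 rose, and the list median was -0.33. Its list mean over the 24 genes ran from 6.08 to 6.46 in Myd88-/- hosts and from 6.10 to 7.03 in WT hosts, with WT array 4 at 6.10. Of 21 interferon-gamma response genes 0 passed the test (median -0.27), the smallest p belonging to the transcription factor gene Irf1 (-0.59 ± 0.15, adjusted p = 0.0870) and to the chemokine gene Cxcl11 (-1.22 ± 0.32, adjusted p = 0.0982). Of 16 MHC class II genes 0 passed (median -0.21), with H2-Ab1 at -0.57 ± 0.18 (adjusted p = 0.176) and H2-DMb2 at -0.48 ± 0.16 (adjusted p = 0.208). WT array 4 had the lowest list mean of its group in all 3 of these lists, and the groups' list means overlapped.

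Genes that rose were fewer, and none of the cytokine, chemokine, NF-kB or feedback lists held one. Mfge8, which bridges apoptotic cells to phagocyte integrins, read 11.22, 10.8, 11.1, 11.71 and 11.26 in Myd88-/- hosts, against 10.78, 10.05, 9.98, 9.89 and 10.75 in WT hosts. The nearest arrays were 0.02 apart (0.93 ± 0.20, adjusted p = 0.0422), and the call was lost under 11 of 21 other settings. It was the only riser among 26 genes of apoptotic-cell uptake, whose median was 0.11. Nt5e, the ectonucleotidase CD73 that makes adenosine, read 7.42, 7.39, 7.29, 7.64 and 7.64 in Myd88-/- hosts, against 6.71, 6.9, 6.92, 6.5 and 6.93 in WT hosts (0.68 ± 0.11, adjusted p = 0.00566). Its separate groups are a condition of its choice among the 15 largest rises, and its other tested probe set gave 0.39. Ankrd37, a target of hypoxia-inducible factor, rose by 0.86 ± 0.15 (adjusted p = 0.00952) as the only riser among 28 hypoxia and glycolysis genes, and Adam8, a membrane protease, by 0.37 ± 0.08 as the only one among 29 matrix genes. Further rises were Zranb3 (0.91 ± 0.17) and Rtel1 (0.72 ± 0.16), both helicases of DNA replication and repair, Bcar3 (0.71 ± 0.15), the kinase genes Cdk20 (0.63 ± 0.10) and Cdk18 (0.54 ± 0.12), Sphk1 (0.57 ± 0.12), which makes sphingosine-1-phosphate, and Sdcbp2, Rrp1b, Gpr137b and Prr15 at 0.54 to 0.63. The call of Rtel1 was lost under 15 of 21 other settings and its other tested probe sets gave 0.16 and -0.09, neither called; the calls of Cdk18 and Gpr137b were lost under 12 each. Npy, the neuropeptide Y gene, was the other gene above 1 log2 unit and is named after its values were seen, with means of 7.23 in Myd88-/- hosts and 6.20 in WT hosts (1.03 ± 0.21, adjusted p = 0.0289). With the actin 3' excess as a covariate 0 rises passed the test, at a median of 0.537 against 0.544 for the risen genes. Without WT array 2, WT array 3, Myd88-/- array 1, 3, 4 or 5 the number of rises was 7, 11, 13, 16, 20 and 8.

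Alternative activation, lipid handling and cell cycle genes gave 0 calls among 31, 18 and 29 tested, with medians of 0.02, 0.14 and 0.04. The members of smallest p were Cd209a (-0.71 ± 0.18, adjusted p = 0.0922) and Irf4 (-0.82 ± 0.23, adjusted p = 0.121) for alternative activation, Pltp (-0.42 ± 0.10, adjusted p = 0.0737) and Apoc2 (-0.36 ± 0.09, adjusted p = 0.0917) for lipids, and Mki67 (-0.40 ± 0.11, adjusted p = 0.130) and Kif23 (-0.21 ± 0.10, adjusted p = 0.419) for the cell cycle.

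Markers of the cell types that the beads could carry were set beside these results. In bulk samples fewer cells of a type and less RNA per cell cannot be told apart. Of 16 monocyte markers 9 fell and 0 rose, with a median of -0.48, and their mean level was 8.20 to 8.33 in Myd88-/- hosts, against 8.64 to 8.80 in WT hosts. Ly6c1, whose product is close to the Ly6C that marks recruited monocytes, read 9.15, 9.05, 8.79, 9.05 and 9.05 in Myd88-/- hosts, against 10.09, 9.98, 9.75, 9.61 and 9.74 in WT hosts (-0.82 ± 0.10, adjusted p = 0.00145). Ms4a4c (-1.01 ± 0.14), Treml4 (-0.99 ± 0.13), Ms4a6c (-0.42 ± 0.07), Ccr2 and Nr4a1 also fell. Ccr2 is also a neighbour of Myd88, and Nr4a1 is also counted among the immediate-early genes. The other Ms4a6c probe set, at lower signal, gave 0.06 and was not called. Ly6c1 lies in a family of near-identical genes that array probes can share, so its value may include relatives.

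Mature macrophage markers gave 0 calls among 22, a median of 0.02 and list means of 9.21 to 9.40 in Myd88-/- hosts and 9.26 to 9.36 in WT hosts. Gpnmb (0.43 ± 0.10, adjusted p = 0.0639) and Cx3cr1 (-0.68 ± 0.17, adjusted p = 0.0882) had the smallest p. Pan-leukocyte genes, 12 tested with 0 calls, averaged 10.13 to 10.19 in Myd88-/- hosts and 10.11 to 10.24 in WT hosts. Itgam, which encodes CD11b, had means of 7.42 in Myd88-/- hosts and 7.82 in WT hosts (-0.40 ± 0.10, adjusted p = 0.0891), and its level lay well above the array medians in both groups. Its arrays read 7.14 to 7.57 in Myd88-/- hosts and 7.60 to 7.98 in WT hosts. The groups thus did not overlap, as for 3.04% of all genes tested.

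Neutrophil markers gave 3 falls and 0 rises among 20, with a median of -0.23 and list means that overlapped, 6.77 to 7.64 in Myd88-/- hosts and 7.05 to 8.15 in WT hosts. Those that fell were Mrgpra2b (-1.64 ± 0.20, adjusted p = 0.00113), Il1f9 and Asprv1 (-0.86 ± 0.19). The highest list mean within the Myd88-/- group was that of array 1, at 7.64, and within the WT group that of array 2, at 8.15. Among migratory dendritic cell markers Marcksl1 (-1.03 ± 0.13, adjusted p = 0.00145) and Cd83 fell of 12 tested, and conventional and plasmacytoid dendritic cell markers gave 0 calls among 13 and 6. T lymphocyte and EG7 markers gave 0 calls among 18, with list means of 5.34 to 5.72 in Myd88-/- hosts and 5.25 to 5.82 in WT hosts, and Cd79b (-0.56 ± 0.12) was the only fall among 5 B lymphocyte markers tested. Fibroblast (15), endothelial (15), natural killer (9), granulocyte of the eosinophil, basophil and mast cell kind (8) and red blood cell (4) lists gave 0 calls, although all 15 fibroblast markers were lower, by a median of 0.16. Fibroblast list means were 7.25 to 7.93 in Myd88-/- hosts and 7.62 to 7.82 in WT hosts, so the arrays overlapped. The part of these cell mixtures in the results was not tested.

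**Figure D4:**
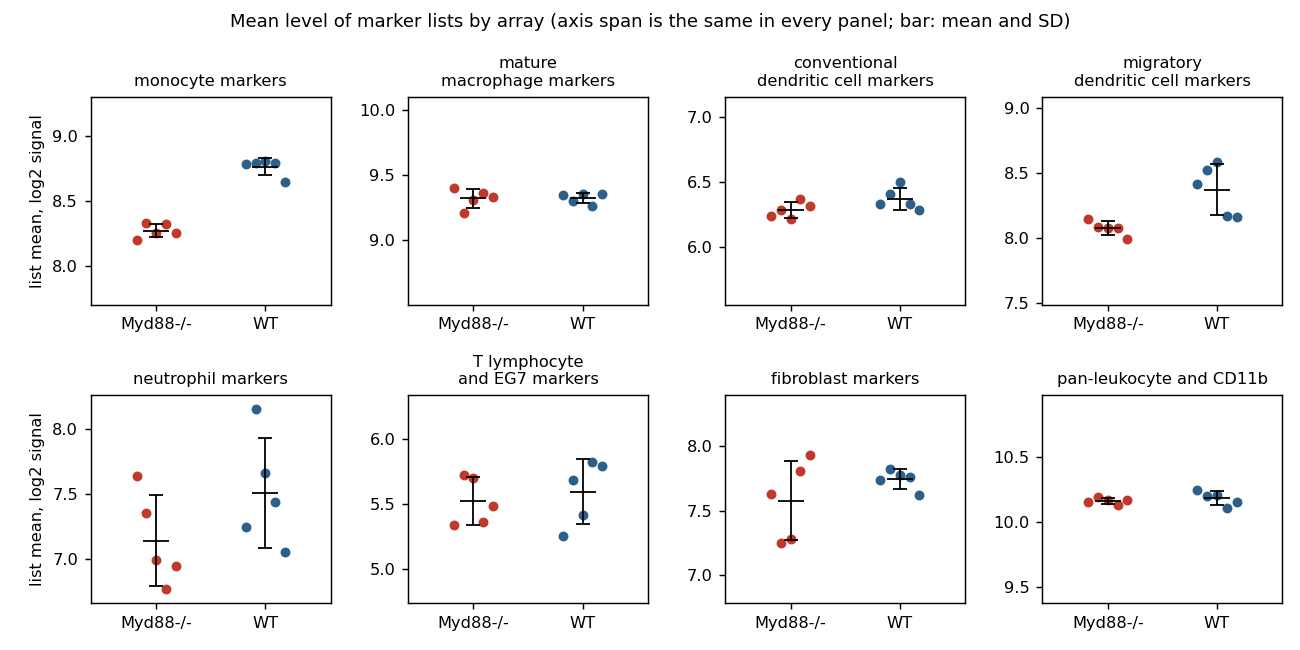
Mean log2 signal over the tested members of 8 marker lists (vertical axes, all of the same span) on each array, with Myd88-/- hosts in red on the left and WT hosts in blue on the right; bars are the mean and SD of 5 arrays. Monocyte marker means do not overlap (8.20 to 8.33 in Myd88-/- hosts, 8.64 to 8.80 in WT hosts), whereas mature macrophage and pan-leukocyte means do.

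Genes close to Myd88 on chromosome 9 held a larger share of calls than genes elsewhere, a description with no test of the shares. Within 10 Mb on either side, by the order of genes on GRCm38.p6, 2 of 108 tested neighbours rose and 6 fell (7.41%), against 170 of 11846 genes elsewhere (1.44%) and 9 of 585 on the rest of the chromosome. Within 5 Mb the share was 10% of 70, and within 20 Mb 3.67% of 218. The number called within 10 Mb was 5 without WT array 2, 3 or 5 or Myd88-/- array 1 or 5, and 1 with the actin covariate. Lars2, the mitochondrial leucyl-tRNA synthetase, read 4.63, 4.68, 5.02, 4.62 and 4.41 in Myd88-/- hosts, against 5.9, 5.98, 5.97, 6.0 and 6.29 in WT hosts. The gap between the groups was larger than the range within either of them (-1.36 ± 0.11, adjusted p = 4.39e-05). Itga9, the only riser among 21 integrin chains, read 5.18, 5.04, 4.71, 5.34 and 4.67 in Myd88-/- hosts, against 3.81, 4.08, 3.89, 3.82 and 4.09 in WT hosts (1.05 ± 0.13, adjusted p = 0.00113). Its 2 other probe sets, at lower signal, gave 0.10 and -0.11 and did not pass, so the probe sets of this gene disagreed. Tmem158 rose by 0.85 ± 0.12, and Ccrl2, a chemerin receptor (-0.65 ± 0.08), Ccr2, Glb1, the lysosomal beta-galactosidase (-0.45 ± 0.09), Vill (-0.68 ± 0.15) and 1 predicted gene fell. Sequence inherited together with the deleted allele and the deletion itself cannot be told apart in these arrays.

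Loss of Myd88 from another allele was measured in the series on another chip. Population A (Ly6C+, MHC class II-) and population C (Ly6C-, MHC class II+) were flow-sorted out of EG7 tumours from hosts with floxed Myd88 and Tie2-Cre, which deletes in endothelial and blood-forming lineages, and of WT hosts, with 2 arrays each. Levels are not compared between the chips. Myd88 read 7.84 and 7.7 in A of Tie2-Cre hosts, against 10.03 and 9.64 in A of WT hosts, and 7.49 and 7.53 in C of Tie2-Cre hosts, against 9.78 and 9.22 in C of WT hosts. Both differences passed the test (-2.07 ± 0.27, adjusted p = 0.00317 in A; -1.99 ± 0.27, adjusted p = 0.0464 in C). Of 16524 genes 525 (3.18%) were called in A, of which 408 rose (2.47%) and 117 fell (0.708%), and 2 (0.0121%) in C, of which 1 rose (0.00605%) and 1, Myd88, fell (0.00605%). With 2 arrays per group the A count was 8 without Tie2-Cre array 2, 165 without Tie2-Cre array 1, 1516 without WT array 1 and 1129 without WT array 2, and the C count was 0 without any single array.

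Of the 145 genes other than Myd88 that fell in germline Myd88-/- hosts, 134 were tested on this chip. In A 96 of them (71.6%) were lower in Tie2-Cre hosts, against 49.9% of all genes, and in C 119 (88.8%), against 51.5%, with medians of -0.24 and -0.23. All these genes were read on the same 2 arrays per group, so 1 shifted array can move many of them together. Such shares, also those of the risen genes below, are descriptions and were not recomputed without single arrays. Only Nfkbiz (-1.32 ± 0.29, adjusted p = 0.0321) and Treml4 (-1.66 ± 0.38, adjusted p = 0.0336) were called lower in A, and 0 were called in C. Over all genes tested 0.708% were called lower in A. Nfkbiz read 8.33 and 8.65 in A of Tie2-Cre hosts, against 10.05 and 9.56 in A of WT hosts. Il1a went the other way in A, at 9.56 and 9.81 in Tie2-Cre hosts and 8.76 and 8.48 in WT hosts (1.07 ± 0.25, adjusted p = 0.0385). Of the 33 risen genes 31 were tested, 21 (67.7%) were higher in A, against 49.8% of all genes, and 25 (80.6%) in C, against 48.2%. Here 7 were called higher in A, namely Mfge8 (1.80 ± 0.38), Nt5e (0.75 ± 0.19), Rhoc (1.69 ± 0.31), Actn1 (1.93 ± 0.37), Cd9 (1.77 ± 0.39), Mtss1 (0.89 ± 0.21) and Cd300lb (1.11 ± 0.26). Over all genes tested 2.47% were called higher in A. The germline differences of these 7 genes were 0.93, 0.68, 0.44, 0.39, 0.43, 0.42 and 0.50. In the same order, their germline calls were lost under 11, 1, 12, 8, 12, 9 and 4 of 21 other settings.

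**Figure D5:**
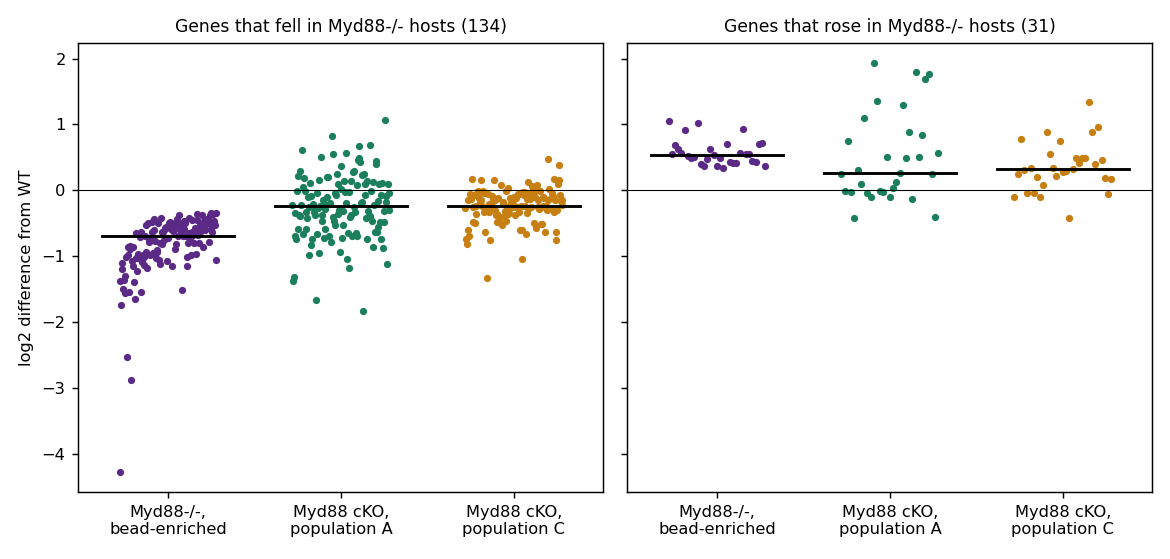
Log2 difference from WT (vertical axis) of the 134 fallen genes (left) and 31 risen genes (right) in germline Myd88-/- hosts and in populations A and C of Tie2-Cre hosts (Myd88 cKO), with 1 point per gene and black bars at the medians. Fallen genes centre on -0.24 in A and -0.23 in C, and risen genes on 0.26 and 0.33.

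Several of the genes with the largest germline falls were not called in the sorted cells. Il23a read 5.66 and 5.35 in A of Tie2-Cre hosts, against 5.83 and 5.62 in A of WT hosts, and 5.22 and 5.59 in C of Tie2-Cre hosts, against 5.71 and 5.64 in C of WT hosts (-0.22 ± 0.16 and -0.27 ± 0.16, neither called). On this chip its probe set lay at the 52.7th percentile in A of Tie2-Cre hosts and the 57.0th in A of WT hosts, and at the 51.5th in C of Tie2-Cre hosts and the 57.8th in C of WT hosts. Csf3 gave 0.18 ± 0.18 in A and -0.07 ± 0.18 in C, and Cxcl13 0.30 ± 0.27 and -0.48 ± 0.27. Mrgpra2b gave -0.11 ± 0.22 and 0.15 ± 0.22, and Gpr84 -0.59 ± 0.22 and -0.09 ± 0.22. None of them was called. Csf3 lay only at the 35.2th percentile in A of WT hosts and the 46.3th in C of WT hosts. With so little signal in WT hosts, these arrays cannot show whether Csf3 falls. Cxcl13, Mrgpra2b and Gpr84 lay at the 76.0th percentile or above in both populations of WT hosts. Tnf read 9.33 and 9.86 in A of Tie2-Cre hosts, against 11.17 and 10.78 in A of WT hosts, a difference of -1.38 ± 0.38 that did not pass the test (adjusted p = 0.0612). Of the neighbours of Myd88, Lars2 gave -0.01 ± 0.16 in A and -0.06 ± 0.16 in C, and Itga9 0.25 ± 0.16 and -0.10 ± 0.16, none called. The difference between the germline and the Tie2-Cre effects was not tested, since chips and cell fractions differ.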

How the data were processed

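RNA of CD11b-enriched cells was hybridised to HT_MG-430_PM arrays, and RNA of flow-sorted populations to Mouse Gene 2.0 ST arrays. Values were used on the log2 scale in which the authors deposited them. Per the submitters' processing notes, the authors ran RMA (Affymetrix Expression Console 1.1) to obtain them. Scanner files were not used here. The sources do not say which arrays entered a joint normalization.

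Groups came from the sample labels. Of 45141 probe sets, 28898 had 1 gene symbol in the platform annotation, 551 had several and 15692 none, and 28689 were matched by Entrez number to GRCm38.p6 symbols, giving 17097 genes. On Mouse Gene 2.0 ST 23521 of 41345 probe sets had 1 symbol and gave 22180 genes. Each gene was read from its probe set of highest mean, and kept when above the 40th percentile of the array on at least 5 of 10 arrays (2 of 16 for sorted cells). The 5 Myd88-/- and 5 WT arrays were fitted with limma 3.58.1 in R 4.3.3 (lmFit and eBayes, no covariate), with Benjamini-Hochberg adjustment over all genes and a threshold of 0.05. Sorted cells were fitted in 1 limma model of all 16 arrays, and each population of Tie2-Cre Myd88 hosts was set against WT. Control probe sets were compared with an exact two-sided permutation test in Python 3.11.15.

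Named genes were Myd88, the 15 largest rises and falls with separate groups, up to 6 called genes of smallest adjusted p per list (or 2 of smallest p where none was called), called neighbours within 10 Mb of Myd88, and genes of the sorted-cell comparison; exceptions are said in place. The members and the 37 gene lists were chosen with earlier results of these data known. On simulated data of 26890 probe sets, the fit recovered 18, 48, 50 and 50 of 50 probe sets changed by 0.5, 1, 2 and 4 log2 units, with 6 false calls. For the sorted cells, on 24980 probe sets, it recovered 2, 23, 40 and 48 of 50 in A and 1, 26, 41 and 49 of 50 in C, with 8 and 11 false calls, so changes of 1 log2 unit or less were often missed there. The number of arrays limits the precision. Between any 2 of the arrays 1.55% to 2.35% of values were identical, so none was a copy. Alternatives were other filters, probe set rules, scalings, weights, priors, covariates and leaving out each array.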

Additional observations from a re-analysis of the deposited data

Results flagged for a closer look

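Within groups of 5 arrays, 1 array stood apart from its 4 companions for 15 of 256 gene and group pairs checked (Dixon's criterion, critical value 0.71). Chance gives about 1 in 20, or 12.8, so the number is close to what chance gives. Values are log2 signals.

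Among Myd88-/- arrays, array 1 stood apart for Csf3, at 5.52 with the others at 4.25 to 4.58, and for Ccr2, at 6.13 with the others at 7.07 to 7.37. Array 2 stood apart for Tnf, at 9.70 with the others at 9.81 to 9.85, and for Nfkbid, at 9.23 with the others at 8.77 to 8.85. Array 3 stood apart for Casp4 at 8.27 (others 8.56 to 8.63), Cd83 at 10.81 (10.96 to 11.02), Ly6c1 at 8.79 (9.05 to 9.15), and the natural killer markers Klrb1c at 3.40 (2.93 to 3.02) and Gzma at 4.67 (5.49 to 5.72). Array 4 stood apart for Klk1 at 5.94 (5.61 to 5.63) and array 5 for Cox6a2 at 5.40 (5.65 to 5.71), both in the plasmacytoid dendritic cell list.

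Among WT arrays, array 1 stood apart for Cx3cr1, at 5.08 with the others at 5.63 to 5.84. Array 3 stood apart for Rtel1, at 3.64 with the others at 4.25 to 4.41. Array 5 stood apart for Lars2, at 6.29 with the others at 5.90 to 6.0, and for Saa3, at 11.17 with the others at 11.64 to 11.78.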

How the results depend on the processing

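Of the values of single named genes that were called, 1579 kept their direction and call under the alternatives, 429 kept the direction and lost the call, and 0 reversed. Where every probe set was tested, only the probe set of smallest p was read for each gene. Other probe sets of opposite sign are therefore not counted here, such as those of Itga9 (-0.11), Rtel1 (-0.09) and Prkd3 (0.11). Against 179 called genes (33 rose, 146 fell), array weights gave 306 (71 rose, 235 fell), an intensity trend with a robust prior gave 58 rises, and centring on array medians gave 19 rises. With the actin 3' excess as a covariate 20 genes were called (0 rose, 20 fell), Myd88 was -0.74 (adjusted p = 0.0891) and 1 neighbour of Myd88 was called instead of 8. The median of the fallen genes was then -0.67, against -0.72, and that of the risen genes 0.537, against 0.544, with a median standard error of 0.157, against 0.116. The covariate differs between the groups, and the cause of the lost calls was not tested. Leaving out 1 array at a time gave 86 to 279 called genes, 7 to 39 rises, 77 to 246 falls and 5 to 8 neighbours of Myd88. The actin difference ran from 0.07 to 0.11 on leaving out 1 array and lost p under 0.05 in 7 of these cases, with fewer arrays. In sorted cells, leaving out 1 array gave 8 to 1516 called genes in A and 0 to 0 in C. With WT and Tie2-Cre Myd88 arrays alone the counts were 335 in A and 10 in C, against 525 and 2, and C had 0 with no filter on low values.

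The direction turned for genes that were not called. Klk1 was -0.40 with the mean of probe sets. With every probe set tested it was read from another probe set, at -0.74, while the probe set of the main fit stayed at 0.20. Bpgm was -0.061 with the mean of probe sets. With every probe set tested it was also read from another probe set, at -0.21, while that of the main fit stayed at 0.04. Bpgm was -0.0072 with the actin covariate and -0.024 to 0.104 on leaving out 1 array. Plvap was -0.062 with the covariate. On leaving out 1 array, Gpr84 in population C ran from -0.36 (without WT array 2) to 0.19 (without WT array 1), and Csf3 in population C from -0.15 (without WT array 1) to 0.01 (without WT array 2). Mrgpra2b in population A ran from -0.535 (without WT array 1) to 0.325 (without WT array 2).

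After each group's mean was subtracted, same-numbered Myd88-/- and WT arrays correlated at 0.225, 0.196, -0.250, 0.043 and 0.145. The same-numbered WT array was the closest for Myd88-/- arrays 2 and 5, but not for arrays 1, 3 and 4. The labels name no pairing, and these values do not settle whether the numbers pair the samples. With the replicate block 26 genes rose and 109 fell, of which 15 and 99 were shared with the fit without it, and in sorted cells the replicate block left 0 calls in C.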

Other observations

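For 61 called genes another tested probe set existed, and for 55 of them all probe sets had the same sign. Another probe set was itself called for 27 of these genes.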
